A study of Mus musculus with 13 samples.

Results

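The autophagy machinery of the mouse mammary gland was followed through 37 genes, taken by symbol from the deposited expression tables as the core factors that start, build and load an autophagosome. All 37 were listed, among 23951 gene symbols in all, and none was listed at 0 in any library. The genes were 5 of the ULK1 kinase complex, 6 of the class III phosphatidylinositol 3-kinase (PI3 kinase) complexes, 7 that supply membrane or bind the lipid product PI3P, 11 of the conjugation machinery, 5 ATG8 proteins and 3 cargo receptors. Total RNA from flash-frozen mammary glands of female mice was sequenced in 13 libraries. The groups were Jak1 conditional knockout glands (KO) at day 2 of involution (n = 4) against wildtype control glands (Con) at that day (n = 3), and KO glands at day 7 of lactation (n = 3) against Con glands at that day (n = 3). The labels name neither the Cre line nor the cells it acts in, nor the strain or the age of the mice. The comparison asks how loss of the kinase JAK1 bears on gland remodelling. Libraries are named by their label with its mouse number and genotype, such as Jak1_44440_KO. The names Jak1_43767_KO and Jak1_43768_Con stand at both stages, so there are 11 numbers for 13 libraries.

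Macroautophagy encloses cytoplasm in a double membrane and delivers it to the lysosome. The ULK1 kinase complex starts the process, the class III PI3 kinase complexes mark the forming membrane with PI3P, and ATG9 and ATG2 proteins supply it with lipid. Ubiquitin-like enzymes then attach ATG8 proteins (the LC3 and GABARAP families) to the membrane, where cargo receptors such as p62 dock. JAK1 is the tyrosine kinase through which receptors of the IL-6 family activate STAT3, and STAT3 is known for driving the first, lysosome-dependent phase of cell death in the involuting gland. Much of the control of autophagy falls on proteins, through phosphorylation and through turnover of LC3 and p62. Transcript levels do not measure autophagic flux.

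The RefSeq promoter table (GRCm38.p6) was used without the windows of a single chromosome, which were left out. What remained held 31 of the 37 genes with 36 start sites. The 250 bases before each start were searched on both strands for 3 motifs. The motif TTCNNNGAA is the core that activated STAT proteins bind, CACGTG is the E-box of basic helix-loop-helix factors, and TCACGTGA is the CLEAR form of that E-box, which contains it and is bound by TFEB, a regulator of lysosomal and autophagy genes. TTCNNNGAA lay in the windows of Gabarap, Gabarapl1, Nbr1 and Wipi1, against 7.02% of all 32851 windows searched. CACGTG lay in those of Atg3, Atg5 and Atg7, against 6.02%, and TCACGTGA in that of Atg3, against 0.79%. The windows of Vmp1 and Ulk1, the genes with the most negative KO minus Con differences at involution, held none of the 3 letter patterns. Wipi1, with the next most negative difference (-0.31 log2 units), is among the genes with TTCNNNGAA. A match is a string of letters and not a shown binding site. The windows of Atg3 (chr16:45158579-45158828, plus strand) and Atg5 (chr10:44268089-44268338, plus strand) are shown because both genes carry the E-box and both were lower at involution than at lactation relative to the median gene. Atg7, the third gene with the E-box, was higher, so genes with the motif stood on both sides. That of Wipi1 (chr11:109611390-109611639, minus strand) is shown for its STAT core. Each reads 5′ to 3′ towards the start site, with the motifs in capitals.
Atg3: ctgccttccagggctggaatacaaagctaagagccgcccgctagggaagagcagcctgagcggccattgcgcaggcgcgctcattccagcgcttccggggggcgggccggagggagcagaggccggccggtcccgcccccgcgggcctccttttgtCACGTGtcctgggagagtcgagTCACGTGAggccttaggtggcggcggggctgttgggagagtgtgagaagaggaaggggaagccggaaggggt
Atg5: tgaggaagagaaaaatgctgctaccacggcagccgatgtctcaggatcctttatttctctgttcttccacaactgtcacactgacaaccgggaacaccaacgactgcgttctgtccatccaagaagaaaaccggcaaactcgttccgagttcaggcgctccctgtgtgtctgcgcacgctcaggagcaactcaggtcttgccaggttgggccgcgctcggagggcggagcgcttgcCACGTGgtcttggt
Wipi1: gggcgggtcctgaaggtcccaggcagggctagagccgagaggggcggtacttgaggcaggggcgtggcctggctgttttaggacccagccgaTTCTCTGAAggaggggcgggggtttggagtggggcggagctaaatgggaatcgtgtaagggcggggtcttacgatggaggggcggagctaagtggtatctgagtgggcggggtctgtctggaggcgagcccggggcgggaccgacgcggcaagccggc

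Values are the authors' FPKM, read fragments scaled to transcript length and library size, in one table for each stage. No read counts were used, so the depth of the libraries is known only relative to each other. It spanned 0.485 to 1.502 times the table's average at involution and 0.723 to 1.29 times at lactation, with the KO library Jak1_43196_KO shallowest at involution. The upper quartile of all genes was 8.61 to 9.07 FPKM in the involution libraries and 3.06 to 3.21 FPKM in the lactation libraries, so the tables look normalised separately. For that reason KO and Con were tested only within a stage. Jak1 itself had 23.0, 22.2, 26.3 and 17.3 FPKM in KO glands, against 24.3, 24.0 and 24.6 FPKM in Con glands at involution. At lactation it had 9.51, 10.2 and 11.2 FPKM in KO glands, against 14.2, 14.0 and 6.18 FPKM in Con glands. The groups overlapped in both, so the level of Jak1 over the whole gene in whole tissue does not check the labels. Of the markers of the gland's own cells, the luminal keratins were present throughout, while Wap and Csn2, which encode major milk proteins, were listed at 0 in every library. Csn3, another milk protein gene, was listed at 0 in all 6 lactation libraries but at 2466 to 15123 FPKM at involution, a difference between the 2 tables that bears on the stage values. The summed level of 5 basal epithelial markers was 377 to 470 FPKM in KO glands and 200 to 342 FPKM in Con glands at involution, with no overlap. Singly, Krt5, Krt14, Acta2 and Trp63 overlapped, and Myh11 was apart only by 34.2 FPKM in KO against 33.8 FPKM in Con glands. Krt5 and Krt14 were highest, at 147 and 177 FPKM, in Jak1_43767_KO, the library with the highest skin keratins. The 6 adipocyte markers together had 4505 to 15660 FPKM in KO glands and 3950 to 7886 FPKM in Con glands, and 4 fibroblast markers had 221 to 595 FPKM in KO glands and 129 to 299 FPKM in Con glands. The 5 macrophage markers had 137 to 410 FPKM in KO glands and 146 to 211 FPKM in Con glands, and 4 skeletal muscle markers reached 3486 FPKM in KO glands and 967 FPKM in Con glands. At lactation 6 luminal markers together had 469 to 545 FPKM in KO glands and 552 to 598 FPKM in Con glands, with no overlap. Singly, all 6 overlapped. The largest part was Elf5, with 293 to 358 FPKM in KO glands and 355 to 404 FPKM in Con glands. The 3 endothelial markers together had 19.4 to 28.1 FPKM in KO glands and 10.7 to 16.8 FPKM in Con glands, with no overlap. Each of the 3 was also apart singly. The part of cell composition in the values below was not tested. In whole glands, fewer cells of a type cannot be told apart from less RNA per cell.

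At day 2 of involution no autophagy gene was called different between KO and Con glands. None of the 37 passed limma's adjusted p threshold of 0.05, with adjusted p values of 0.599 to 0.998, against 0.0719% of all genes tested (9 of 12509). At an unadjusted p below 0.05 there were 2 of the 37, Vmp1 and Atg9b, against 6.84% of all genes. The log2 differences between KO and Con ran from -0.67 to 0.97, with 13 positive, 24 negative and a median of -0.07, where the median of all genes was 0.01. In 2 of the 37 the KO and Con libraries did not overlap, Atg9b with KO higher and Vmp1 with KO lower. Separation was read on the FPKM as deposited, and over all genes it occurred in 2.67% with KO higher and in 4.42% with KO lower. Atg9b passed the filter of 1 FPKM in 3 libraries only through the KO group, so its separation is in part set by the filter.

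Within the ULK1 complex, 4 of 5 genes had negative differences and none passed the test. Ulk1, which encodes the initiating kinase, had 18.5, 21.1, 18.2 and 28.7 FPKM in KO glands, against 31.6, 30.5 and 23.7 FPKM in Con glands. In 3 KO libraries the level lay below all Con libraries, and Jak1_44440_KO lay among them. The log2 difference was -0.37 ± 0.20 (SE; limma adjusted p = 0.883). The related kinase Ulk2 averaged 10.1 ± 1.3 FPKM in KO glands and 11.1 ± 0.62 FPKM in Con glands (SD, n = 4 and 3). The scaffold genes Atg13 and Rb1cc1 (FIP200) averaged 11.9 ± 1.1 and 7.37 ± 0.73 FPKM in KO glands, against 13.6 ± 1.6 and 8.17 ± 0.34 FPKM in Con glands. Atg101, which stabilises ATG13, averaged 27.2 ± 4.4 FPKM in KO glands and 25.1 ± 2.9 FPKM in Con glands.

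The PI3 kinase genes lay close together. Becn1 encodes Beclin 1, the regulatory subunit shared by both complexes, and had 44.2, 46.4, 41.6 and 57.7 FPKM in KO glands, against 42.6, 53.4 and 55.1 FPKM in Con glands. The groups overlapped over most of their range, and the log2 difference was -0.06 ± 0.17 (SE; limma adjusted p = 0.998). Becn1 transcripts share 1299 bases with those of the neighbouring Cntd1, and the sources used here do not say whether counting used strand, so its level is uncertain. The catalytic subunit gene Pik3c3 (VPS34) averaged 8.02 ± 1.75 FPKM in KO glands and 7.70 ± 0.87 FPKM in Con glands. Its partner Pik3r4 (VPS15) averaged 4.19 ± 0.39 FPKM in KO glands and 4.61 ± 0.80 FPKM in Con glands. Atg14 directs the complex to autophagosome formation and had 6.47, 6.02, 6.45 and 9.49 FPKM in KO glands, against 7.84, 8.37 and 8.99 FPKM in Con glands. The level of 3 KO libraries lay below all Con libraries and that of Jak1_44440_KO above them all. Ambra1, a Beclin 1 partner, had the same arrangement, with 6.09, 6.81, 5.44 and 10.5 FPKM in KO glands, against 8.59, 8.70 and 7.09 FPKM in Con glands. Uvrag, which marks the other Beclin 1 complex, averaged 5.25 ± 0.28 FPKM in KO glands and 5.13 ± 0.15 FPKM in Con glands.

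The genes for membrane supply held both unadjusted signals, in opposite directions. Vmp1 encodes a lipid scramblase of the endoplasmic reticulum needed for autophagosome formation. It had 26.3, 27.4, 25.8 and 23.5 FPKM in KO glands, against 28.2, 46.4 and 57.3 FPKM in Con glands. The KO libraries sat together, while the lowest Con library, Jak1_44448_Con, lay just above them and the other 2 Con libraries were higher. The log2 difference was -0.67 ± 0.23 (SE; limma adjusted p = 0.599). The Vmp1 gene (GRCm38 chr11:86583865-86683836, minus strand) contains at its 3′ end the gene of the microRNA miR-21a (chr11:86584067-86584158, minus strand), so reads of the miRNA's primary transcript can fall on Vmp1. At lactation Vmp1 averaged 14.4 ± 4.9 FPKM in KO glands and 17.4 ± 9.1 FPKM in Con glands, with overlap.

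Atg9b encodes a less widely expressed paralogue of the lipid scramblase ATG9A and was at the low end of the 37 genes. It had 1.37, 5.52, 0.98 and 1.73 FPKM in KO glands, against 0.38, 0.87 and 0.45 FPKM in Con glands. All KO libraries lay above all Con libraries, and Jak1_43767_KO lay far above the rest. The log2 difference was 0.97 ± 0.39 (SE; limma adjusted p = 0.698), and it was 1.68 with a pseudocount of 0.1. Every Con library was below 1 FPKM. Jak1_43767_KO was also the library in which 3 skin keratin genes stood highest, with 53.5 FPKM of Krt10 and 38.8 FPKM of Krt1, where no other involution library exceeded 3.59 FPKM of Krt10 or 0.0955 FPKM of Krt1. The part of skin in the Atg9b level was not tested. The broadly expressed Atg9a averaged 10.9 ± 1.5 FPKM in KO glands and 12.2 ± 1.2 FPKM in Con glands. Wipi1, a PI3P-binding protein gene, had 23.8, 19.4, 24.0 and 24.6 FPKM in KO glands, against 18.8, 38.2 and 34.1 FPKM in Con glands. Jak1_44448_Con lay just below the KO libraries and the other 2 Con libraries above all of them. Wipi2, which recruits ATG16L1, averaged 21.3 ± 2.2 FPKM in KO glands and 22.8 ± 1.7 FPKM in Con glands. The lipid transfer genes Atg2a and Atg2b averaged 7.41 ± 2.18 and 3.35 ± 0.42 FPKM in KO glands, against 6.74 ± 1.52 and 4.18 ± 0.66 FPKM in Con glands.

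**Figure D1:**
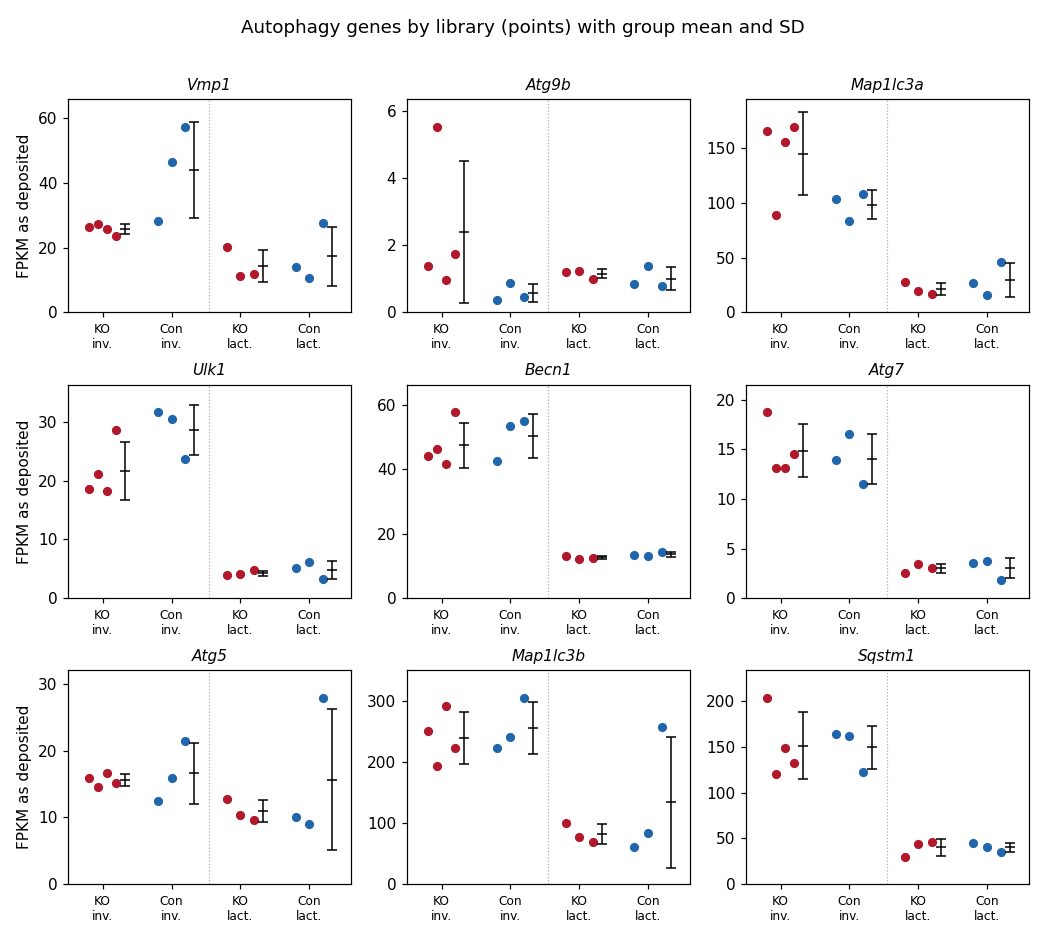
FPKM as deposited of 9 autophagy genes in each library (points; red, KO; blue, Con), with the group mean and SD (black) to the right of the points, for KO and Con glands at involution day 2 (inv.; n = 4 and 3) and lactation day 7 (lact.; n = 3 each). Vmp1 and Atg9b separate KO from Con at involution, and the highest Con points of Atg5, Map1lc3b and Vmp1 at lactation all belong to library Jak1_44175_Con; the scales of the 2 stages are not shared.

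None of the 11 conjugation genes separated KO from Con glands. Atg7, the E1-like enzyme gene, had 18.7, 13.1, 13.1 and 14.5 FPKM in KO glands, against 13.9, 16.6 and 11.5 FPKM in Con glands (log2 difference 0.10 ± 0.18 SE; limma adjusted p = 0.996). Atg5, whose product is joined to ATG12 and forms the E3-like complex with ATG16L1, had 15.9, 14.6, 16.6 and 15.2 FPKM in KO glands, against 12.4, 15.9 and 21.5 FPKM in Con glands (log2 difference -0.03 ± 0.18 SE; limma adjusted p = 0.998). The groups overlapped for both genes. The E2-like enzyme genes Atg3 and Atg10 averaged 16.3 ± 3.2 and 7.56 ± 1.97 FPKM in KO glands, against 17.05 ± 0.08 and 5.81 ± 0.77 FPKM in Con glands. Atg12 and Atg16l1 averaged 13.6 ± 2.2 and 12.5 ± 2.1 FPKM in KO glands, against 13.2 ± 3.4 and 12.1 ± 0.29 FPKM in Con glands. Atg16l2, a paralogue of Atg16l1, was the least even gene of the group, with 2.73 to 10.8 FPKM in KO glands and 4.61 to 7.26 FPKM in Con glands. Among the ATG8-processing proteases, Atg4b was the most abundant at 16.3 ± 1.9 FPKM in KO glands and 17.5 ± 1.6 FPKM in Con glands. Atg4a, Atg4c and Atg4d lay between 3.65 and 9.52 FPKM in KO glands and between 3.605 and 9.906 FPKM in Con glands. Reads of Atg4a cannot be separated with certainty from those of its near-identical copy Atg4a-ps.

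The ATG8 genes included the most abundant of the 37, and their differences had both signs. Map1lc3b encodes LC3B, the usual marker protein of autophagosomes, and had 252, 193, 293 and 223 FPKM in KO glands, against 224, 242 and 305 FPKM in Con glands (log2 difference -0.07 ± 0.21 SE; limma adjusted p = 0.998). Map1lc3a (LC3A) had 165, 89.0, 156 and 170 FPKM in KO glands, against 104, 83.5 and 108 FPKM in Con glands. The level of 3 KO libraries lay above all Con libraries and that of Jak1_43767_KO among them. The log2 difference was 0.54 ± 0.26 (SE; limma adjusted p = 0.790), the third smallest p of the 37. Gabarap was the highest of all at 522 ± 170 FPKM in KO glands and 541 ± 88 FPKM in Con glands. Gabarapl1 averaged 78.9 ± 9.9 FPKM in KO glands and 89.8 ± 10.02 FPKM in Con glands. Gabarapl2 averaged 141 ± 29 FPKM in KO glands and 145 ± 65 FPKM in Con glands, and its reads are shared with processed pseudogenes.

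Of the 3 cargo receptor genes, Sqstm1 (p62), whose protein is itself degraded by autophagy, had 203, 121, 149 and 132 FPKM in KO glands, against 164, 162 and 123 FPKM in Con glands. The Con libraries lay inside the KO range, with a log2 difference of 0.03 ± 0.23 (SE; limma adjusted p = 0.998). Nbr1, a relative of p62, had 27.8, 27.5, 28.5 and 26.2 FPKM in KO glands, against 31.1, 35.7 and 28.2 FPKM in Con glands. Optn (optineurin) averaged 10.7 ± 0.95 FPKM in KO glands and 11.9 ± 1.2 FPKM in Con glands.

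The counts of separated genes depended on Jak1_44440_KO. Without it, 7 of the 36 genes that passed the filter had all remaining KO libraries below all Con libraries, namely Ulk1, Rb1cc1, Atg14, Ambra1, Atg2b, Wipi2 and Vmp1, against 7.46% of all genes in the same libraries. Uvrag and Atg10 had KO above Con, against 6.97% of all genes. On rescaled FPKM the genes with KO below Con numbered 5, without Ambra1 and Wipi2, against 6.17% of all genes. No gene of the 37 passed limma's adjusted p threshold without Jak1_44440_KO, and that library was the most deeply sequenced at involution. Without Jak1_43914_Con 4 genes had KO below Con, against 8.34% of all genes. Without Jak1_43196_KO or Jak1_44176_KO there were 3 in each case, against 6.28% and 6.59%, and without Jak1_44448_Con or Jak1_43768_Con 2 in each case, against 10.3% and 7.01%. With KO above Con there were 2 genes without Jak1_44448_Con, against 6.92% of all genes, and none without Jak1_43196_KO, against 3.6%.

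**Figure D2:**
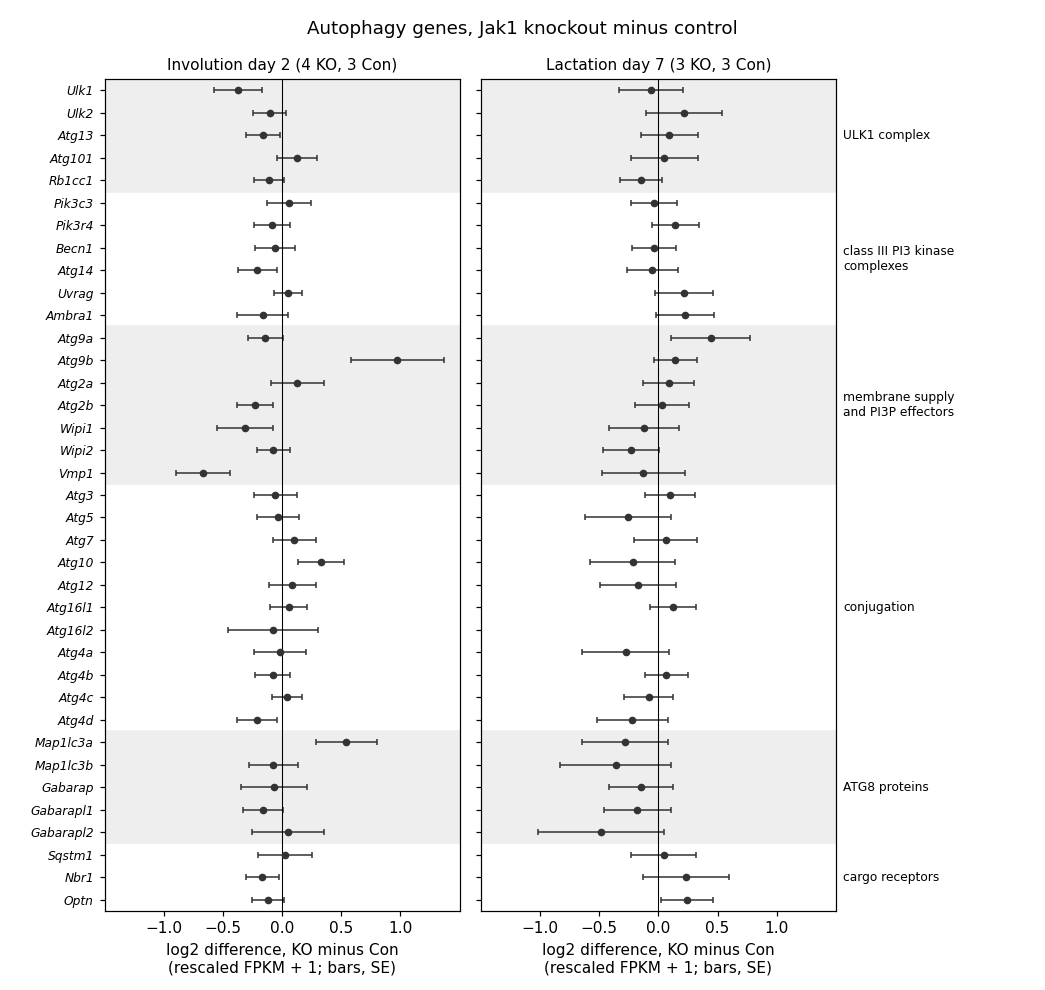
The log2 difference between KO and Con glands (horizontal axis; points, limma estimate on rescaled FPKM + 1; bars, SE) of each autophagy gene by role, at involution day 2 (left) and lactation day 7 (right). The estimates run from -0.67 (Vmp1) to 0.97 (Atg9b) at involution and from -0.49 (Gabarapl2) to 0.44 (Atg9a) at lactation, and none passed the adjusted p threshold; Atg16l2 was below the filter at lactation.

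At day 7 of lactation again no autophagy gene was called different between KO and Con glands. Of the 37 genes 36 passed the filter, Atg16l2 being below it at 0.39 ± 0.14 FPKM in KO glands and 0.27 ± 0.17 FPKM in Con glands (SD, n = 3 each). None of the 36 passed the threshold, each with a limma adjusted p of 0.998, against 0.0105% of all genes (1 of 9560). None had an unadjusted p below 0.05, against 2.38% of all genes. None had KO and Con libraries that did not overlap, against 2.89% of all genes with KO higher and 3.17% with KO lower. Differences were positive for 17 genes and negative for 19, with a median of -0.04 where that of all genes was 0.01. The smallest p values belonged to Atg9a, Optn and Wipi2. Atg9a had 7.98, 7.70 and 7.59 FPKM in KO glands, against 7.18, 7.84 and 3.13 FPKM in Con glands (log2 difference 0.44 ± 0.33 SE; limma adjusted p = 0.998). Optn had 3.38, 2.55 and 2.91 FPKM in KO glands, against 2.94, 2.61 and 1.82 FPKM in Con glands (log2 difference 0.24 ± 0.22 SE). Wipi2 had 7.12, 6.62 and 7.88 FPKM in KO glands, against 6.79, 8.14 and 13.2 FPKM in Con glands (log2 difference -0.23 ± 0.24 SE). In each of the 3 genes the Con library Jak1_44175_Con was the extreme value and the other 2 Con libraries lay within or close to the KO range.

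Ulk1 had 3.94, 4.13 and 4.74 FPKM in KO glands, against 5.08, 6.22 and 3.20 FPKM in Con glands (log2 difference -0.06 ± 0.27 SE). Becn1 had 13.2, 12.3 and 12.6 FPKM in KO glands, against 13.5, 13.02 and 14.4 FPKM in Con glands (log2 difference -0.04 ± 0.19 SE). Atg7 had 2.52, 3.43 and 3.05 FPKM in KO glands, against 3.50, 3.73 and 1.86 FPKM in Con glands (log2 difference 0.06 ± 0.27 SE). The groups overlapped for all 3 genes. Atg5 had 12.7, 10.4 and 9.59 FPKM in KO glands, against 10.1, 9.03 and 27.8 FPKM in Con glands (log2 difference -0.26 ± 0.36 SE). Map1lc3b had 101, 77.0 and 69.2 FPKM in KO glands, against 61.3, 83.5 and 258 FPKM in Con glands (log2 difference -0.36 ± 0.47 SE). Sqstm1 had 29.9, 44.3 and 46.0 FPKM in KO glands, against 44.7, 41.0 and 34.8 FPKM in Con glands (log2 difference 0.04 ± 0.28 SE). In Atg5 and Map1lc3b the third Con value, again of library Jak1_44175_Con, exceeded every other lactation library. All 5 ATG8 genes had negative differences and all 3 cargo receptor genes positive ones, signs that turned for most of them without Jak1_44175_Con. Without it, Map1lc3a (0.04), Map1lc3b (0.19), Gabarapl1 (0.07) and Gabarapl2 (0.16) had positive log2 differences and Gabarap a negative one (-0.04), while Sqstm1 (-0.11) and Nbr1 (-0.15) had negative differences and Optn a positive one (0.07).

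The Con library Jak1_44175_Con stood apart from the other 5 lactation libraries. Its FPKM summed to 871630 over all genes, where the others had 312976 to 421592, and the 37 autophagy genes summed to 1088 FPKM, where the others had 536 to 610. After rescaling, 6 of the 37 genes were at least 1 log2 unit above the median of the other lactation libraries, led by Gabarapl2 at 1.99 and Map1lc3b at 1.56. Atg9a and Nbr1 were 1.22 and 1.17 log2 units below it. Across the 37 genes Spearman's rho between the deviation and the longest annotated transcript was -0.446, and across 9160 genes of the table it was -0.433. This is a correlation across genes of 1 library, and genes are not independent replicates. Another library with such a relation was Jak1_43196_KO at involution, the shallowest of its stage, with rho of -0.666 across the 37 genes and -0.352 across 11950 genes. The KO library Jak1_44174_KO at lactation had rho of -0.39 across the 37 genes and -0.237 across 9160 genes. Positive values occurred too. Jak1_43767_KO at lactation had rho of 0.434 across the 37 genes and 0.292 across 9160 genes. Jak1_44448_Con at involution had rho of 0.393 across the 37 genes and 0.183 across 11950 genes. The part of library quality in the KO and Con values was not tested. Without Jak1_44175_Con the differences at lactation were positive for 21 genes and negative for 15, with a median of 0.03, and again none passed the threshold (smallest limma adjusted p = 0.999). Atg5 then had a log2 difference of 0.18 and Atg7 of -0.20, each opposite in sign to the value with all 6 libraries. Leaving out this library separated KO from Con libraries in 4 of 36 genes with KO lower (Ulk1, Atg2b, Wipi1 and Atg7), against 9.17% of all genes in the same libraries, and in 1 with KO higher (Atg10), against 8.53%. Leaving out Jak1_43768_Con instead separated 4 genes with KO higher (Ulk2, Atg13, Atg9a and Atg9b), against 6.02% of all genes, and 1 with KO lower (Becn1), against 6.82%. Leaving out Jak1_42186_Con separated 2 with KO lower (Rb1cc1 and Wipi2), against 13.1% of all genes. On FPKM as deposited, leaving out each of the 3 KO libraries separated at most 1 gene in either direction. The shares of all genes were 4.29% to 7.05% with KO higher and 5.19% to 8.16% with KO lower. On rescaled FPKM, KO was higher in Ambra1 and Atg16l1 without Jak1_44174_KO, against 8.58% of all genes. It was higher in Atg9a and Optn without Jak1_42734_KO, against 6.41%, and at most 1 gene had KO lower in each case.

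**Figure D3:**
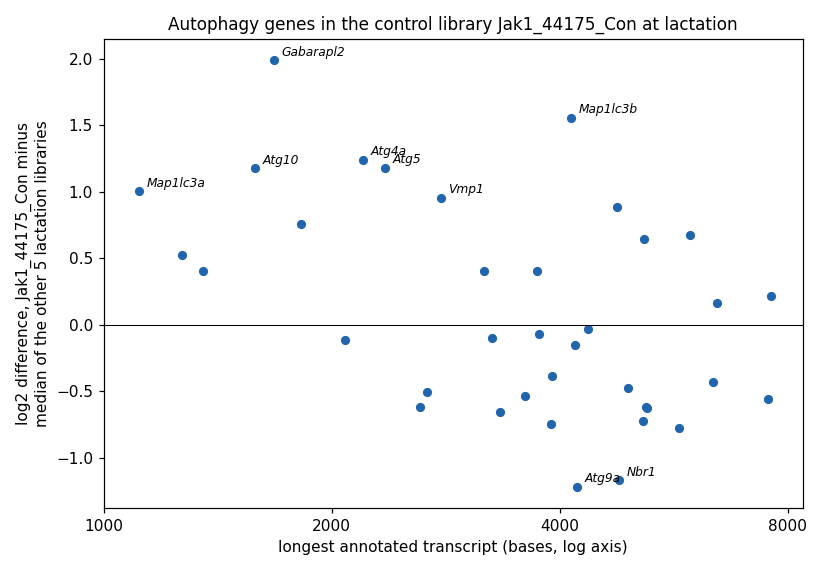
Deviation of the Con library Jak1_44175_Con at lactation from the median of the other 5 lactation libraries (vertical axis, log2 of rescaled FPKM + 1) against the longest annotated transcript of each of the 37 autophagy genes (horizontal axis, bases, log scale). Genes with short transcripts such as Map1lc3a and Gabarapl2 lie above 0, and Atg9a and Nbr1 lie lowest; Spearman's rho was -0.446.

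Whether the KO effect differed between the stages was tested as an interaction over all 13 libraries, rescaled together. No gene of the 37 passed the threshold, each with a limma adjusted p of 1, against 0.0711% of all genes (9 of 12667), and none had an unadjusted p below 0.05, against 3.03% of all genes. The smallest p was that of Map1lc3a, whose KO minus Con difference was 0.84 ± 0.45 log2 units (SE) larger at involution than at lactation (limma adjusted p = 1). Atg9a followed at -0.59 ± 0.39 and Atg9b at 0.63 ± 0.45 log2 units (SE). Without Jak1_44175_Con the value of Map1lc3a was 0.53 and that of Atg9a -0.17, and with array weights they were 0.38 and -0.24. With the mouse number as a block Map1lc3a had 0.47 and Atg9b 1.18. Atg9b had 0.29 without Jak1_43767_KO at involution and 1.34 with a pseudocount of 0.1, and array weights gave it 0.99.

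Of 59 further genes of the pathway, listed as regulators, receptors, fusion factors and other autophagy factors, 57 were in the tables, and 56 were tested at involution and 51 at lactation. None passed limma's threshold in either comparison or in the interaction. At involution 29 differences were positive and 27 negative, with a median of 0.01. At lactation 26 were positive and 25 negative, with a median of 0.01. KO and Con libraries were separated with KO lower in 1 of the 56 at involution, against 4.42% of all genes. At lactation this held for 2 of the 51, against 3.17% of all genes. With KO higher there were 0 at either stage, against 2.67% and 2.89% of all genes. These 3 genes are named here after their values were seen. Tax1bp1, a cargo receptor gene, had 55.4, 56.2, 56.6 and 50.7 FPKM in KO glands, against 61.0, 66.8 and 59.1 FPKM in Con glands at involution. Ddit4, encoding the mTORC1 inhibitor REDD1, had 10.1, 10.1 and 5.97 FPKM in KO glands, against 12.97, 17.7 and 11.1 FPKM in Con glands at lactation. Ei24, encoding an endoplasmic reticulum protein, had 24.9, 25.8 and 25.5 FPKM in KO glands, against 26.1, 29.2 and 41.6 FPKM in Con glands at lactation. The gaps were small against the range of the libraries in all 3 genes, and after rescaling the libraries of Ddit4 overlapped.

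Involution was also set beside lactation within each genotype. As the tables look normalised separately, stage and table cannot be told apart, and the stage values are given without a test, after rescaling all 13 libraries together by their median gene ratio. On that scale the median gene of all 12667 was 0.19 log2 units higher at involution in KO glands and 0.17 in Con glands, and the median autophagy gene was 0.09 and 0.07 higher. In KO glands 12 of the 37 genes had all involution libraries above all lactation libraries and 8 had them below, against 29.2% and 17.9% of all genes. In Con glands 12 were above and 5 below, against 27% and 14.9% of all genes. Without Jak1_44175_Con, 17 genes were above and 10 below in Con glands, against 34% and 22.7% of all genes. The sums of cell type markers, in FPKM as deposited and not on the joint scale, also differed between the stages. On FPKM as deposited the median of all genes was higher at involution, by 1.11 log2 units in KO glands and 1.06 in Con glands. A change in the markers therefore cannot be told apart here from the difference between the tables. The macrophage markers summed to 137 to 410 FPKM in KO glands and 146 to 211 FPKM in Con glands at involution, against 39.8 to 48.3 FPKM in KO glands and 29.5 to 44.6 FPKM in Con glands at lactation. The adipocyte markers summed to 4505 to 15660 FPKM in KO glands and 3950 to 7886 FPKM in Con glands at involution, against 1396 to 2100 FPKM in KO glands and 787 to 2641 FPKM in Con glands at lactation. The luminal markers summed to 1292 to 2193 FPKM in KO glands and 1357 to 1834 FPKM in Con glands at involution, against 469 to 545 FPKM in KO glands and 552 to 598 FPKM in Con glands at lactation. Their part in the stage values was not tested.

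Of the 37 genes 11 (29.7%) were above in both genotypes, against 18.6% of all genes. They were Ulk1, Pik3r4, Becn1, Atg14, Atg2a, Atg7, Atg16l2, Atg4b, Gabarapl1, Sqstm1 and Optn, named after their values were seen. By rank within each library, 8 of them were also above (all but Pik3r4, Atg4b and Sqstm1). The share of all genes above by rank was 20.1% in KO glands and 19.7% in Con glands, and that for both genotypes together is not given. Atg16l2 was below 1 FPKM in every lactation library and passed the filter only through involution, so it had to differ, and its direction supports nothing. Ulk1 was higher at involution by 0.94 log2 units in KO glands and 1.22 in Con glands, and Becn1 by 0.58 in KO glands and 0.59 in Con glands. Atg14 was higher by 0.84 in KO glands and 0.96 in Con glands, and Gabarapl1 by 0.99 in KO glands and 0.95 in Con glands. A further 4 genes (10.8%), Atg3, Atg5, Atg4a and Atg4c, were below in both genotypes on the joint scale, against 11.2% of all genes. They were also below by rank, where 25.5% of all genes were below in KO glands and 20.4% in Con glands. Genes of the conjugation machinery stood on both sides. Atg7 was higher at involution by 0.89 log2 units in KO glands and 0.84 in Con glands, and Atg4b by 0.38 in KO glands and 0.51 in Con glands. Atg3, the enzyme gene that acts after Atg7, had differences of -1.28 in KO glands and -1.14 in Con glands, and Atg5 of -0.71 in KO glands and -0.95 in Con glands. Ranked within each library, Atg3 stood in KO glands at the 83.2 percentile of all genes at involution, against the 92.8 percentile at lactation.

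Among the ATG8 genes, Map1lc3a was higher at involution by 1.43 log2 units in KO glands, with no overlap, and by 0.58 in Con glands, with overlap. Gabarap and Map1lc3b, the most abundant, differed by 0.26 each in KO glands and by 0.16 and -0.05 in Con glands, with overlap. Among the cargo receptors, Sqstm1 was higher by 0.62 log2 units in both genotypes, while Nbr1 had differences of -1.22 in KO glands, with no overlap, and -0.83 in Con glands, with overlap. Without Jak1_44175_Con, the genes given here with overlap in Con glands had none there. Their Con differences were then 0.88 log2 units for Map1lc3a, 0.48 for Map1lc3b, 0.24 for Gabarap and -1.25 for Nbr1. The FPKM as deposited gave a different count, with 32 genes in KO glands and 27 in Con glands above at involution and none below. On that scale the median of all genes was itself higher at involution, by 1.11 log2 units in KO glands and 1.06 in Con glands, and 80.1% and 73.3% of all genes were above without overlap.

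**Figure D4:**
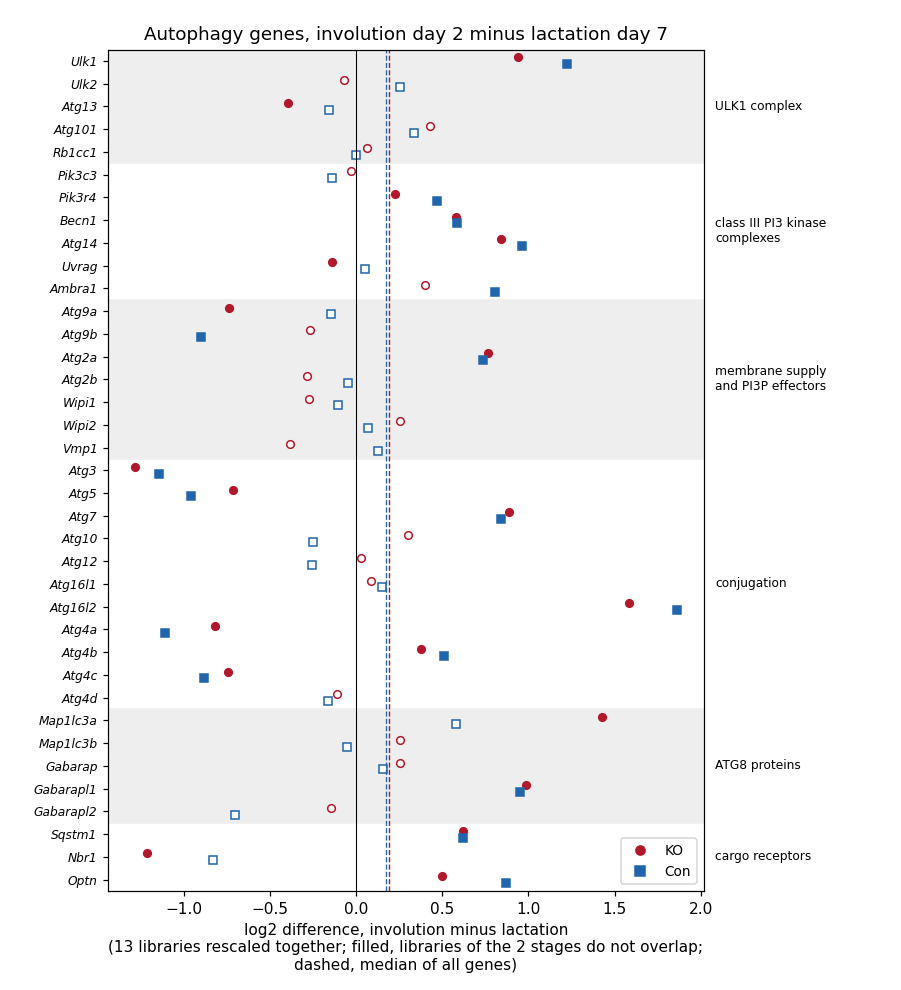
Involution minus lactation difference (horizontal axis, log2 of rescaled FPKM + 1, 13 libraries rescaled together) of the 37 autophagy genes by role, in KO glands (red circles; 4 and 3 libraries) and Con glands (blue squares; 3 libraries each). Filled symbols mark genes whose involution and lactation libraries do not overlap and dashed lines the median of all genes (0.19 in KO glands and 0.17 in Con glands); Atg16l2 lies highest and Atg3 lowest in both genotypes.

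Among the other pathway genes, 17 of 56 in KO glands and 11 of 56 in Con glands were above at involution, against 29.2% and 27% of all genes, and 12 and 11 were below, against 17.9% and 14.9%. By rank within each library, 12 were above and 19 below in KO glands, against 20.1% and 25.5% of all genes. In Con glands 11 were above and 13 below by rank, against 19.7% and 20.4%. The balance depends on the scale, also over all genes. Bcl2l1 (BCL-XL), whose product binds Beclin 1, was higher at involution by 1.64 log2 units in KO glands and 1.73 in Con glands. Prkaa2, a catalytic subunit gene of the energy sensor AMPK, had differences of -2.83 in KO glands and -2.86 in Con glands, while the gene of the other catalytic subunit, Prkaa1, was higher by 0.68 in KO glands and 0.72 in Con glands. Both AMPK genes separated the stages in both genotypes. Tfeb was higher by 0.58 in KO glands, with no overlap, and by 0.59 in Con glands, with overlap. These 4 were named after their values were seen.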

How the data were processed

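Per the labels' protocols, total RNA of whole mammary glands was prepared with a TruSeq RNA kit for a HiSeq2000 sequencer. The submitters' processing notes name CASAVA, cutadapt, TopHat and the build mm9. Which tool computed the values is not given in these sources. The authors deposited FPKM in 1 table per stage. Within a table, FPKM were rescaled by median of ratios over genes that reached 1 FPKM in each library (factors 0.98 to 1.02 at involution and 0.954 to 1.12 at lactation). Genes that reached 1 FPKM in 3 or more libraries were tested as log2(FPKM + 1), which understates changes of low genes, with limma 3.58.1 in R 4.3.3 (trended empirical Bayes, two-sided, Benjamini-Hochberg over all genes tested, threshold 0.05). The code was tested on simulated data. The genes and lists were chosen with earlier results of these data known. Genes named with test values were the 3 of smallest p per comparison plus Ulk1, Becn1, Atg5, Atg7, Map1lc3b and Sqstm1. Planned limma tests between stages were replaced by descriptions, since the tables look normalised separately. The interaction compares the KO minus Con differences of the stages, fitted on all libraries rescaled together and not within each table. Relative depth came from the steps of values below 0.3 FPKM. The labels speak of 7 and 6 mice but hold 11 mouse numbers, so separate animals are not certain throughout, and p values then measure the spread between libraries. Near copies were found by aligning annotated transcripts (at least 95% identity over 300 bases). Alternatives were another pseudocount, no filter, no rescaling, quantile normalization, robust empirical Bayes, array weights, a mouse block and leaving out each library. For the interaction each table was also rescaled within itself, and again none of the autophagy genes was called. With FPKM alone, no counting intervals were given.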

Additional observations from a re-analysis of the deposited data

Results flagged for a closer look

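Among the 4 KO libraries at involution, 3 of the 37 genes had 1 library far from the other 3 by Dixon's gap ratio at its 95% critical value. Chance flags about 1 in 20 groups. Atg14 had 9.49 FPKM in Jak1_44440_KO, where the other 3 KO libraries had 6.02 to 6.47 FPKM and Con glands 7.84 to 8.99 FPKM. Atg9b had 5.52 FPKM in Jak1_43767_KO, the library with the highest skin keratins, where the other 3 KO libraries had 0.98 to 1.73 FPKM and Con glands 0.38 to 0.87 FPKM. Wipi1 had 19.4 FPKM in Jak1_43767_KO, where the other 3 KO libraries had 23.8 to 24.6 FPKM and Con glands 18.8 to 38.2 FPKM.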

How the results depend on the processing

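No autophagy gene passed the threshold under any alternative run for the 3 limma comparisons. Over all genes, calls at involution numbered 14 under the robust option and 20 under array weights, against 9, and 2 to 9 when 1 library was left out. At lactation they numbered 2 with a pseudocount of 0.1 and 9 with array weights, against 1, and 0 to 3 with 1 library left out. For the interaction they numbered 14 with array weights and 19 with the replicate block by mouse number, against 9, and 5 to 9 with 1 library left out. The block had a consensus correlation of 0.712 and rests on the 2 mouse numbers found at both stages. It made no call among the 37 genes. No block could be used within a stage, where KO and Con share no mouse number.

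Small log2 differences turned sign. At involution Atg7 became -0.011 with array weights and Sqstm1 -0.00053 without rescaling and -0.071 with array weights. At lactation Becn1 became 0.00029 with quantile normalization, Atg5 0.15 and Atg7 -0.15 with array weights, and Sqstm1 -0.021 without rescaling. Leaving out 1 library gave at involution log2 differences of -0.19 to 0.15 for Atg5, -0.033 to 0.22 for Atg7, -0.18 to 0.043 for Map1lc3b and -0.13 to 0.12 for Sqstm1, and at lactation log2 differences of -0.32 to 0.12 for Ulk1, -0.056 to 0.0033 for Becn1, -0.52 to 0.18 for Atg5, -0.20 to 0.20 for Atg7, -0.73 to 0.19 for Map1lc3b and -0.11 to 0.24 for Sqstm1. The cause was not tested.

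Genes whose groups do not overlap depended on single libraries. With all libraries, rescaled FPKM, chosen after seeing the data, gave the same counts as FPKM as deposited, 1 higher and 1 lower at involution and 0 at lactation. With 1 library left out, FPKM as deposited gave 0 to 2 with KO higher and 1 to 7 with KO lower at involution. At lactation they gave 0 to 4 and 0 to 4. Between the stages, FPKM as deposited and tables rescaled within themselves both gave 32 genes above and 0 below in KO glands and 27 above and 0 below in Con glands, because neither removes the factor between the tables. With 1 library left out, the joint scale gave 12 to 14 above and 7 to 11 below in KO glands and 12 to 17 above and 5 to 10 below in Con glands. The share of all genes moved as well. In Con glands it was 27% above and 14.9% below with all libraries, and 34% and 22.7% without Jak1_44175_Con. For the other omitted libraries that share is not given, so these ranges are not set against all genes. Ranks within each library, chosen after seeing the data, gave 10 above and 11 below in KO glands, against 20.1% and 25.5% of all genes. In Con glands they gave 11 above and 6 below, against 19.7% and 20.4%. The pseudocount, filter, robust, array-weight and block alternatives planned for the stage comparisons were not run, as no stage test was made.

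With 3 or 4 libraries a group, SEs were 0.12 to 0.53 log2 units within a stage and 0.19 to 0.64 for the interaction. Small differences in these transcripts could therefore not be detected, and larger ones could be missed too. At involution Atg9b had a log2 difference of 0.97 ± 0.39 (SE) with a limma adjusted p of 0.698.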
